A study of Rattus norvegicus with 30 samples.

Results

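The genes described here are the 8 sphingosine-1-phosphate (S1P) signalling genes S1pr1, S1pr2, S1pr3, Sphk1, Sphk2, Spns2, Sgpl1 and Plpp3, taken by gene name from a table of 30562 genes. All 8 were present once and all 8 were among the 16171 genes that passed the filter on low counts. They were measured by bulk RNA sequencing of CD31+ lung cells, sorted with magnetic microbeads from wild-type rats 3 weeks after surgery. CD31 is a surface protein of endothelial cells, platelets and some leukocytes. Rats had either sham surgery or a Glenn operation, which in its clinical form joins the superior vena cava to the pulmonary artery, so that venous blood of the upper body enters the lung without passing the right heart. With either surgery the rats were on a diet with control, deficient or excess vitamin A, which gave 6 groups of 5 libraries. The sample titles do not say when the diets began. Strain, age and sex are not given in the labels, and nothing in them says whether the libraries of a group came from separate animals; if they did not, the p-values measure only the spread between these samples.

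S1P is a lipid signal made inside cells when the sphingosine kinases Sphk1 and Sphk2 phosphorylate sphingosine, a product of ceramide breakdown. Endothelial cells release it through the transporter Spns2, and it then acts on G protein-coupled receptors: S1pr1 couples to Gi and tightens endothelial junctions, S1pr2 couples mainly to G12/13 and can loosen them, and S1pr3, also abundant in smooth muscle and pericytes, couples to several G proteins. The signal ends when Plpp3 removes the phosphate at the cell surface or when Sgpl1, the S1P lyase of the endoplasmic reticulum, cleaves the molecule irreversibly.

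The libraries held 22029047 to 77647592 estimated counts (median 39968409), and levels below are CPM, counts scaled to a common library size with TMM factors. CPM is not divided by transcript length, so levels are compared between groups and never between genes. Of the 9 endothelial markers checked against the CD31 label, including Pecam1 and Cdh5, none was at 0 in every library, and their summed level was 8714 to 10962 CPM after sham and 6073 to 8948 CPM after Glenn surgery. Other cells were present too: 6 lung epithelial markers summed to 25401 to 44162 CPM after sham and 19004 to 40216 CPM after Glenn surgery, and the 8 mural (pericyte and smooth muscle) markers to 161 to 328 CPM after sham and 466 to 1687 CPM after Glenn surgery. The summed mural level did not overlap between the surgeries, although single markers such as Pdgfrb did. The 5 leukocyte markers present summed to 13006 to 24453 CPM after sham and 8043 to 18852 CPM after Glenn surgery. The 6 fibroblast markers summed to 1261 to 3240 CPM after sham and 1790 to 4676 CPM after Glenn surgery. The library names in the labels fall into a lower-numbered series of 22 libraries and a higher-numbered series of 8 (3 sham deficient, 2 Glenn deficient and 3 Glenn excess), and the series entered the fit as a term. Libraries also divided by the major histocompatibility gene RT1-CE16, high in 13 and low in 17. In bulk samples, fewer cells of a type and less RNA per cell cannot be told apart.

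With the 3 diets averaged, 3 of the 8 genes changed between Glenn and sham libraries at an adjusted p under 0.05 (edgeR quasi-likelihood test, Benjamini-Hochberg adjustment over all genes tested), where 48.2% of all genes tested did. The receptors S1pr3 and S1pr2 rose (23.4% of all genes rose) and the exporter Spns2 fell (24.7% of all genes fell). The 8 genes had a median log2 change of 0.14, against -0.013 for all genes tested, and the share that changed was not above the background. Their sizes differed: S1pr3 rose to 3.56 times its sham level, Spns2 fell to 0.623 times, and S1pr2 rose to 1.23 times. S1pr1, both kinases and both breakdown enzymes did not pass the test. When libraries were instead scaled to the summed counts of the 9 endothelial markers, the median of all genes moved up by 0.361, 92.2% of all calls were rises (48.6% with TMM), and all 8 genes were called. Relative to the median of all genes, S1pr3 was then at 1.85, S1pr2 at 0.32 and Spns2 at -0.67, against 1.85, 0.31 and -0.67 with TMM.

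**Figure D1:**
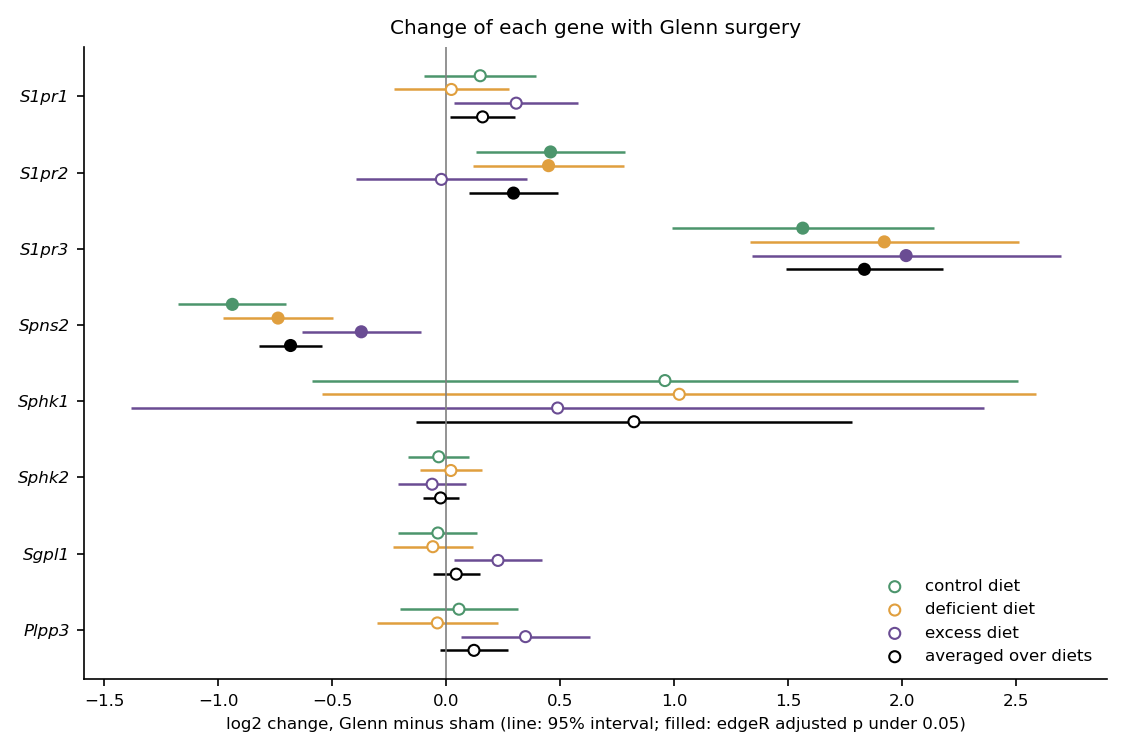
Log2 change between Glenn and sham surgery (x axis) for each of the 8 genes (y axis), with the 3 diets averaged and on each diet; points are edgeR estimates and bars are 95% confidence intervals. S1pr3 lies at 1.83 and Spns2 at -0.68 with the diets averaged, and the intervals of Sphk1 are the widest.

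The promoter windows of the 3 receptors are shown because 2 of these genes changed with surgery while the third, S1pr1, did not pass the test, and because Klf2, a flow-responsive transcription factor that regulates S1pr1, fell (values below). Each window runs from 250 bases before to 50 bases after the RefSeq start on the GRCr8 build, 5′ to 3′ on the gene's strand. Capitals mark CACCC or its complement GGGTG, the core recognised by KLF factors. Of the 8 genes, 7 matched the promoter table, with 9 windows; Spns2 did not.
S1pr1 promoter (chr2:206314021-206314320, minus strand): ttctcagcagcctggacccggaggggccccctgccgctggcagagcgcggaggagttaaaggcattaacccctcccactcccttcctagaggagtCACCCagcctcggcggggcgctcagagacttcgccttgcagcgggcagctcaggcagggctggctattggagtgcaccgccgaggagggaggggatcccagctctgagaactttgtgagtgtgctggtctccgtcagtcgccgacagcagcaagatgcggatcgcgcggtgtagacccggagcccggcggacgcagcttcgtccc
S1pr2 promoter (chr8:27790295-27790594, minus strand): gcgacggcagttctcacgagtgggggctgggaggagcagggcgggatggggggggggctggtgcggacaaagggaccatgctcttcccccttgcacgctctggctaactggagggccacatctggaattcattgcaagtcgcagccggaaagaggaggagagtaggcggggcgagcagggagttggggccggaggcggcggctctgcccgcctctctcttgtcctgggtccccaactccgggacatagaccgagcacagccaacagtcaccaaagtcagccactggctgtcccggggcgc
S1pr3 promoter (chr17:13945964-13946263, minus strand): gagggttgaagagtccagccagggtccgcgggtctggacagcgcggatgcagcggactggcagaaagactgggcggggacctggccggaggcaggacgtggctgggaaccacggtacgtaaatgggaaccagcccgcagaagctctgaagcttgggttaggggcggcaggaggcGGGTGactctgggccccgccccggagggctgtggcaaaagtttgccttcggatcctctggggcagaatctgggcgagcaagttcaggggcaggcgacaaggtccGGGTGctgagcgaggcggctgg
The S1pr1 window held 1 match to CACCC on either strand, the S1pr2 window 0 and the S1pr3 window 2, and 54.9% of the 33469 promoters in the table held at least 1. The ETS core CCGGAA (on both strands, in 15% of promoters) occurred once in the S1pr2 window, and the hypoxia response core ACGTG (in 19.3% of promoters) once in the S1pr3 window. The S1pr3 matches to CACCC and ACGTG do not overlap. AGGTCA, the core of nuclear receptor sites (in 16.2% of promoters), and GGCGCC, a BMP SMAD motif (in 11%), occurred in none of the 9 windows. A match is a description of the letters and shows no binding.

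S1pr3 (ENSRNOG00000014524) had the largest change of the 8 genes. After sham surgery it stood at 19.2, 15.8, 11.1, 12.7 and 10.8 CPM on the control diet, at 16.9, 16.7, 11.7, 12.1 and 13.6 CPM on the deficient diet, and at 6.48, 13.8, 9.97, 12.4 and 15.4 CPM on the excess diet. After Glenn surgery it stood at 39.0, 33.5, 44.1, 35.2 and 54.4 CPM on the control diet, at 59.3, 48.6, 75.6, 38.1 and 45.5 CPM on the deficient diet, and at 20.02, 34.3, 42.7, 68.8 and 73.9 CPM on the excess diet. Every Glenn library lay above every sham library, with the highest sham value, 19.2 CPM, just under the lowest Glenn value, 20.02 CPM. Groups of 15 against 15 did not overlap for 5.83% of all genes. The sham mean was 13.2 ± 3.20 CPM and the Glenn mean 47.6 ± 16.1 CPM (SD, n = 15 each). The fitted rise was 3.56-fold (95% interval 2.81 to 4.53), or 1.83 ± 0.168 (SE) on the log2 scale, with an edgeR adjusted p of 7.39e-10.

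On the separate diets 3 of the 8 genes were called on the control diet (24.9% of all genes), 3 on the deficient diet (27.4%) and 2 on the excess diet (21.9%), and S1pr3 rose on each. Its log2 change was 1.56 ± 0.279 (SE; edgeR adjusted p = 0.00011) on the control diet, 1.92 ± 0.287 (adjusted p = 1.06e-05) on the deficient diet and 2.02 ± 0.329 (adjusted p = 4.58e-05) on the excess diet, that is 2.96-, 3.79- and 4.05-fold. Sham and Glenn libraries did not overlap on any diet; this held for 17.2%, 19.6% and 16.3% of all genes on the control, deficient and excess diet. In the order of group means the 3 sham groups came first, and within either surgery neighbouring groups overlapped. The spread was widest in the Glenn excess group, with 47.97 ± 22.9 CPM (SD, n = 5). Glenn excess 1 and 2 (20.02 and 34.3 CPM) were RT1-CE16-low and in the lower-numbered series. Glenn excess 3, 4 and 5 (42.7, 68.8 and 73.9 CPM) were RT1-CE16-high and in the higher-numbered series. All 5 sham excess libraries were low and lower-numbered, so the surgeries on this diet also differed in both.

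Mural markers moved with S1pr3. All 8 of them (Pdgfrb, Cspg4, Notch3, Acta2, Myh11, Tagln, Cnn1 and Rgs5) rose after Glenn surgery, where 23.4% of all genes did. Their mean log2(CPM + 1) was 4.56 (3.91 to 5.01) after sham and 6.01 (5.40 to 7.18) after Glenn surgery. Within groups, libraries with more mural signal had more S1pr3: the deviations from the 6 group means gave Pearson r = 0.78 and Spearman's coefficient = 0.71 over 30 libraries (permutation within groups, two-sided, p = 3e-05 and 0.00022; adjusted over 96 relations 0.00144 and 0.0106). Without Glenn deficient 3 and 4, the libraries whose mural scores deviated most from their group mean, r was 0.79. These deviations still held any differences in library-number series or RT1-CE16 level within a group, which the permutations did not take into account. The difference between S1pr3 and the mural score, both on the log2(CPM + 1) scale, was -0.77 (-1.07 to -0.39) in sham and -0.48 (-1.03 to -0.16) in Glenn libraries, and these ranges overlapped. With the mural score as a covariate, an alternative chosen after seeing the data, the S1pr3 change was 0.40 (edgeR adjusted p = 0.333). Since the mural score separates the surgeries without overlap, the contributions of mural signal and surgery to that fit cannot be told apart. Against the mean of the endothelial markers, S1pr3 was 2.05 higher after Glenn surgery.

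**Figure D2:**
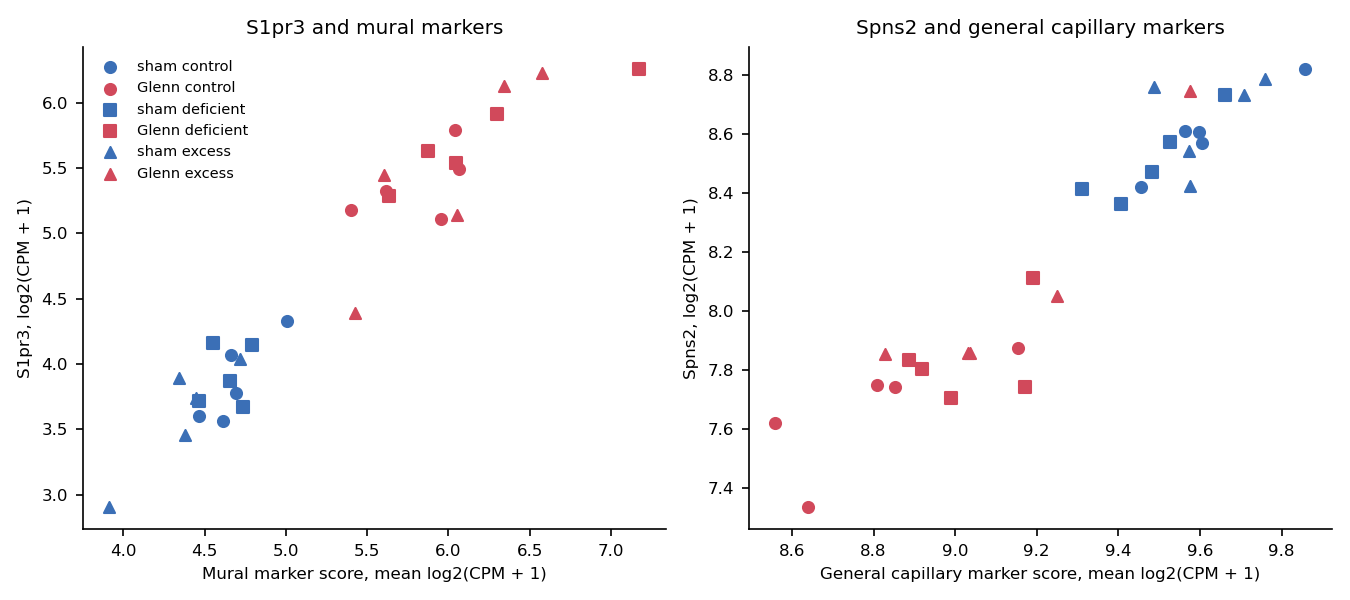
Member level against marker score in the 30 libraries, both as mean log2(CPM + 1): S1pr3 against the mural markers and Spns2 against the general capillary markers. Points are libraries, coloured by surgery and shaped by diet. The mural score of every sham library (at most 5.01) lies below that of every Glenn library (at least 5.40).

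S1pr2 (ENSRNOG00000020653) rose less than S1pr3, and on 2 of the 3 diets. Sham libraries held 17.3, 15.5, 17.7, 25.5 and 18.2 CPM on the control diet and Glenn libraries 26.4, 16.01, 24.5, 29.3 and 33.1 CPM. On the deficient diet sham libraries held 20.03, 18.6, 19.99, 18.9 and 18.6 CPM and Glenn libraries 24.4, 23.3, 24.9, 30.2 and 24.4 CPM. On the excess diet sham libraries held 14.6, 18.0, 17.5, 18.1 and 16.2 CPM and Glenn libraries 12.3, 16.02, 26.5, 23.5 and 15.7 CPM. The surgeries were separate on the deficient diet and overlapped on the control and excess diets, where Glenn excess 1 was the lowest of the 30 libraries. The averaged log2 change was 0.29 ± 0.095 (SE; 95% interval 0.10 to 0.49; edgeR adjusted p = 0.0114). By diet it was 0.46 ± 0.160 (edgeR adjusted p = 0.0352) on the control diet, 0.45 ± 0.162 (adjusted p = 0.0390) on the deficient diet and -0.02 ± 0.184 (adjusted p = 0.955) on the excess diet.

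The averaged S1pr2 rise passed the test in each of the 30 fits that left out a library (0.26 to 0.34; edgeR adjusted p = 0.00138 to 0.0230) and was lost in some larger subsets. In the lower-numbered series alone the averaged change over diets was 0.19 (edgeR adjusted p = 0.196), and in RT1-CE16-low libraries, an alternative chosen after seeing the data, it was 0.18 (adjusted p = 0.184). With the general capillary score as a covariate, likewise chosen after seeing the data, it turned to -0.07. Apart from Glenn excess 1, that score separates the surgeries, so its contribution and that of surgery cannot be told apart. On the control diet the call was lost without any 1 of sham control 1, 2, 3 and 5 and Glenn control 1, 4 and 5 (0.35 to 0.45; edgeR adjusted p = 0.0611 to 0.126). On the deficient diet it was lost without any 1 of sham deficient 2 to 5 and Glenn deficient 1 to 4 (0.41 to 0.48; edgeR adjusted p = 0.0507 to 0.0943). The diets were not shown to differ: the excess minus control difference in the surgery effect was -0.48, with a 95% interval of -0.98 to 0.02.

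S1pr1 (ENSRNOG00000013683), the main endothelial S1P receptor, did not pass the test. It ranged from 699 to 1076 CPM over the sham libraries (864 ± 91.7, SD, n = 15) and from 730 to 1250 CPM over the Glenn libraries (957 ± 173, SD, n = 15). The surgeries overlapped over most of their range, and the lowest and highest Glenn values both came from the excess diet. The averaged log2 change was 0.16 ± 0.070 (SE; 95% interval 0.02 to 0.30; edgeR adjusted p = 0.0611). The value sits near the threshold: in the lower-numbered series alone it was 0.29 (edgeR adjusted p = 0.00508) and by DESeq2 0.17 (adjusted p = 0.0333), and it also passed the test without any 1 of sham control 5, Glenn control 1 and 5, sham deficient 5, Glenn deficient 1, sham excess 3 and Glenn excess 5 (0.17 to 0.19; edgeR adjusted p = 0.0158 to 0.0489). The changes on the control, deficient and excess diets were 0.15, 0.02 and 0.31 (edgeR adjusted p = 0.407, 0.918 and 0.0985), and on the excess diet S1pr1 passed without sham deficient 1 (0.35) or Glenn excess 5 (0.37). Relative to the endothelial marker mean, which was 0.32 lower in Glenn libraries, S1pr1 was 0.46 higher on the log2(CPM + 1) scale.

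Spns2 (ENSRNOG00000057040), the exporter, fell on all 3 diets. On the control diet it went from 389, 379, 451, 342 and 390 CPM in sham libraries to 234, 213, 161, 214 and 196 CPM in Glenn libraries. On the deficient diet it went from 424, 354, 340, 329 and 380 CPM to 276, 222, 227, 208 and 213 CPM. On the excess diet it went from 433, 425, 372, 343 and 441 CPM to 428, 264, 230, 231 and 231 CPM. The surgeries did not overlap on the control and deficient diets; on the excess diet they overlapped through 1 library, Glenn excess 1, at 428 CPM. The sham mean was 386 ± 40.5 CPM and the Glenn mean 237 ± 59.3 CPM (SD, n = 15 each).

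The averaged Spns2 log2 change was -0.68 ± 0.068 (SE; edgeR adjusted p = 1.27e-09), a Glenn level 0.623 times the sham level (95% interval 0.566 to 0.686). By diet it was -0.94 ± 0.116 (edgeR adjusted p = 3.17e-07) on the control diet, -0.74 ± 0.117 (adjusted p = 1.65e-05) on the deficient diet and -0.37 ± 0.127 (adjusted p = 0.0336) on the excess diet. Without Glenn excess 1 the change on the excess diet was -0.62, and in the lower-numbered series alone it was -0.21 (edgeR adjusted p = 0.456). That series held only 2 Glenn excess libraries, and Glenn excess 1 was among them. The call on the excess diet was lost without any 1 of sham deficient 2, sham excess 1, 2 and 5 and Glenn excess 2, 4 and 5 (-0.36 to -0.29; edgeR adjusted p = 0.0512 to 0.157). The interaction of surgery and diet did not pass the test for Spns2 (edgeR adjusted p = 0.717). S1pr3 and Spns2 were the members that changed in the same direction on each of the 3 diets, which 13.5% of all genes did. Spns2 had estimated counts that were not whole numbers in 30 of 30 libraries, so part of its reads was divided among transcripts by the estimator. A gene total that is not whole points to reads shared with transcripts outside the gene, and which these were was not examined.

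General capillary markers moved with Spns2. These markers (Gpihbp1, Aplnr, Plvap, Ptprb and Kit) summed to 5611 to 8838 CPM after sham and 2430 to 5692 CPM after Glenn surgery. Of the 5, 4 fell, where 24.7% of all genes did, and none was at 0 in every library. Within groups Spns2 and the general capillary score gave Pearson r = 0.80 and Spearman's coefficient = 0.73 over 30 libraries (permutation within groups, two-sided, p = 3e-05 for both; adjusted over 96 relations 0.00144 and 0.00288). Without Glenn excess 1 and Glenn control 1, the libraries whose scores deviated most from their group mean, r was 0.70. Differences in library-number series or RT1-CE16 level within a group were not removed, and the permutations treated its libraries as exchangeable. The aerocyte capillary markers, of which 4 of 5 fell (median log2 change -1.65), had no relation with Spns2 within groups that passed the test (r = -0.14, Spearman's coefficient = -0.05; permutation p = 0.473 and 0.785; adjusted 0.726 and 0.879). With the general capillary score as a covariate, chosen after seeing the data, the averaged Spns2 change was -0.24 (edgeR adjusted p = 0.0789). With the mural score as a covariate it was -0.36 (edgeR adjusted p = 0.113). Relative to the mean of the 9 endothelial markers, Spns2 was 0.40 lower in Glenn libraries. General capillary scores were at least 9.31 in sham libraries and, apart from Glenn excess 1 (9.58), at most 9.25 in Glenn libraries. The mural score separates the surgeries without overlap. Its relation with Spns2 within groups did not pass the test (r = -0.32, adjusted permutation p = 0.452). The contributions of either score and of surgery to these fits therefore cannot be told apart. The part of capillary signal in the Spns2 change was not tested beyond these fits.

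**Figure D3:**
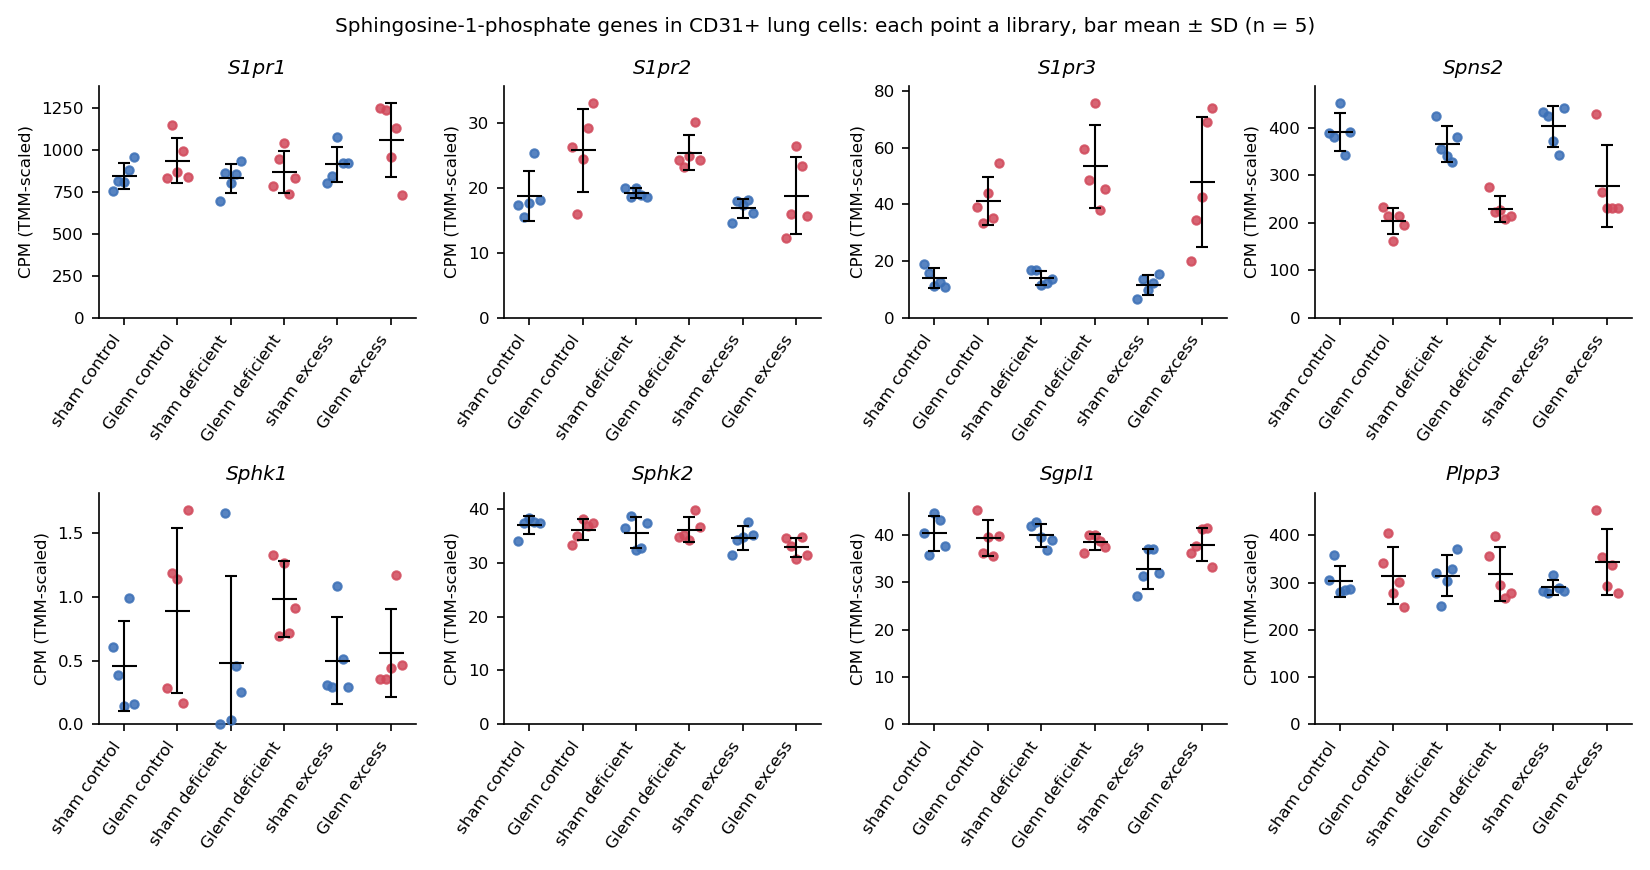
CPM (y axis, linear from 0, a separate scale per gene) of the 8 genes in each of the 30 libraries, by surgery and diet (x axis); points are libraries, horizontal marks are group means and bars are SD (n = 5), drawn down to 0 where they would pass below it. All 15 Glenn libraries lie above all 15 sham libraries for S1pr3, and the library Glenn excess 1, at 428 CPM, lies within the sham range for Spns2.

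The sphingosine kinases did not pass the test in any comparison. Sphk1 (ENSRNOG00000010626), the cytosolic inducible kinase, was near the detection limit, with 0 to 92 estimated counts per library. It ranged from 0 to 1.66 CPM in sham libraries and from 0.166 to 1.69 CPM in Glenn libraries; the 1 library at 0, sham deficient 1, had a floor of 0.0775 CPM for 3 counts, which covers counting error only. Its averaged log2 change was 0.82 ± 0.467 (SE; 95% interval -0.13 to 1.78; edgeR adjusted p = 0.151), and by limma voom it was 1.29 (adjusted p = 0.0141). Without sham deficient 2, its highest sham library, the change was 1.15 (edgeR adjusted p = 0.0207). An annotated antisense RNA, Khps1a, overlaps Sphk1, and without a stated strand setting reads of the pair cannot be told apart. Sphk2 (ENSRNOG00000021032), the nuclear and mitochondrial kinase, was among the steadiest of the 8 genes, at 30.7 to 39.8 CPM over all 30 libraries. Its averaged log2 change was -0.02 ± 0.039 (SE; 95% interval -0.10 to 0.05; edgeR adjusted p = 0.627).

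The 2 genes that end the signal did not pass the test either. Sgpl1 (ENSRNOG00000000565) stood at 27.1 to 44.6 CPM after sham and 33.2 to 45.4 CPM after Glenn surgery. Its averaged log2 change was 0.04 ± 0.050 (SE; 95% interval -0.06 to 0.15; edgeR adjusted p = 0.496). Plpp3 (ENSRNOG00000008116) stood at 251.1 to 371 CPM after sham and 248 to 454 CPM after Glenn surgery, and its averaged log2 change was 0.12 ± 0.073 (SE; 95% interval -0.03 to 0.27; edgeR adjusted p = 0.177). The Plpp3 value was larger in the lower-numbered series alone, 0.28 (edgeR adjusted p = 0.0114). On the excess diet the changes were 0.23 ± 0.095 for Sgpl1 (edgeR adjusted p = 0.0885) and 0.35 ± 0.139 for Plpp3 (edgeR adjusted p = 0.0733). Sgpl1 passed there without sham excess 3 or 4 (0.27 each; edgeR adjusted p = 0.0486 and 0.0464), and Plpp3 without sham deficient 2 or 5 (0.40 and 0.37; edgeR adjusted p = 0.0222 and 0.0452). An annotated long noncoding RNA, LOC120102940, overlaps Plpp3, so its reads cannot be told apart from those of Plpp3 without a strand setting.

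The main edgeR fit called 1 of the 8 genes in 1 of 4 diet comparisons. In Glenn libraries Spns2 was higher with excess than with control vitamin A, by a log2 difference of 0.61 ± 0.126 (SE; edgeR adjusted p = 0.0135); 1.47% of all genes changed and 0.890% rose in this comparison. The 2 groups overlapped. Without Glenn excess 1 the difference was 0.37 (edgeR adjusted p = 0.255). The call was also lost under the alternatives listed in the closing section. In the same comparison S1pr2 had a log2 difference of -0.64 ± 0.184 (SE; edgeR adjusted p = 0.0775), which passed without Glenn control 2 (-0.77) or Glenn excess 3 (-0.75), and S1pr1 one of 0.27 ± 0.132 (edgeR adjusted p = 0.355).

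The other diet comparisons called 0 of the 8 genes with edgeR, and DESeq2 and limma voom also called 0. Deficient against control diet after sham surgery had 0 members at an unadjusted p under 0.05 (5.22% of all genes), with 0% of all genes called after adjustment. Excess against control diet after sham surgery had 1 (11.1% of all genes, and 0.241% called after adjustment), Sgpl1, with a log2 difference of -0.29 ± 0.085 (SE; edgeR adjusted p = 0.135). Deficient against control diet after Glenn surgery had 1 (9.88% of all genes, and 0.00618% called after adjustment), Spns2, with a log2 difference of 0.29 ± 0.122 (SE; edgeR adjusted p = 0.390). The test of whether the surgery effect differed between diets called 0 of the 8 genes (0.00618% of all genes), and 1, Spns2, had an unadjusted p under 0.05 (5.72% of all genes). For Spns2 the excess minus control difference in the surgery effect was 0.57 ± 0.171 (SE; 95% interval 0.22 to 0.92; edgeR adjusted p = 0.350).

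The 8 genes were set against 12 marker lists in the same way, by deviations from the group means over 30 libraries. Of these 96 relations, 10 had an adjusted p under 0.05 for r and 4 for both r and Spearman's coefficient (permutation within groups). Beside S1pr3 with mural and Spns2 with general capillary markers, the 4 were S1pr3 with aerocyte capillary markers and Sphk1 with mural markers. Sphk1 was near the detection limit, with 0 to 92 estimated counts per library, so counting error weighs on its relation. S1pr3 was lower where aerocyte markers were higher (r = -0.48, Spearman's coefficient = -0.61; permutation p = 0.00517 and 0.00059, adjusted 0.0496 and 0.0189; r = -0.43 without sham deficient 1 and sham control 1). Sphk1 was higher where mural markers were higher (r = 0.45, Spearman's coefficient = 0.56; permutation p = 0.00262 and 0.00186, adjusted 0.0419 and 0.0446; r = 0.46 without Glenn deficient 3 and 4). Plpp3 followed the endothelial markers by r alone (r = 0.64, Spearman's coefficient = 0.55; permutation p = 0.0016 and 0.0051, adjusted 0.0413 and 0.0769), with r = 0.56 without Glenn excess 1 and Glenn control 1. The other 5 relations that passed by r alone were Plpp3 with venous (r = 0.62, adjusted permutation p = 0.0473) and epithelial markers (r = -0.62, adjusted 0.0413), S1pr2 with epithelial markers (r = 0.56, adjusted 0.0419), and Spns2 (r = 0.60) and S1pr3 (r = -0.54) with endothelial markers (adjusted 0.0473 each). Relations of marker lists with each other mean that these values are not independent. Only group means were removed, so library-number series and RT1-CE16 level can add to each relation, and their part was not tested.

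For each gene, the 2 genes with the most similar pattern were found among 12714 genes by Pearson's r of the deviations from the 6 group means in log2(CPM + 1), over 30 libraries. These values describe likeness and carry no test. S1pr3 was most like Asb2 (r = 0.87) and Speg (r = 0.83), and Spns2 most like Chit1 (r = 0.90) and Wif1 (r = 0.87). S1pr1 was most like Il4r (r = 0.84) and Itprip (r = 0.80), and S1pr2 most like Arhgef26 (r = 0.84) and Arhgap1 (r = 0.81). Plpp3 was most like Thbd and Tlnrd1 (r = 0.83 each), and Sgpl1 most like Etnk1 (r = 0.78) and Fyco1 (r = 0.77). Sphk1 was most like Ift57 (r = 0.72) and Arnt2 (r = 0.71), and Sphk2 most like Srfbp1 (r = 0.71) and Trpm4 (r = 0.68). Among the 28 pairs of the 8 genes themselves, none had an adjusted p under 0.05; the strongest was S1pr2 with Plpp3, at r = -0.58 and Spearman's coefficient = -0.41 over 30 libraries (permutation within groups, two-sided, p = 0.00585 and 0.042; adjusted over 28 relations 0.144 and 0.225). Without the 2 libraries whose S1pr2 levels deviated most from their group mean, r was -0.47.

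The wider pathway was counted from lists chosen with earlier results of these data known. Over all genes tested, 23.4% rose and 24.7% fell in the averaged comparison that these counts refer to, and scaling to endothelial markers, which moved the median of all genes up by 0.361, raised the rises and lowered the falls among all genes. Of 8 other S1P genes, 7 were tested: 2 rose, 3 fell and 2 did not pass the test, with a median log2 change of -0.48; with the endothelial scaling 2 rose and 2 fell. The phosphatase Sgpp1, which dephosphorylates S1P inside the cell, fell from 46.7 ± 7.998 CPM to 29.4 ± 3.20 CPM (SD, n = 15 each; log2 change -0.69; edgeR adjusted p = 4.20e-10), and Sgpp2, its relative, from 2.35 ± 0.822 to 1.35 ± 0.726 CPM. S1pr4, a receptor of lymphocytes, fell from 12.8 ± 3.39 to 6.60 ± 1.28 CPM (log2 change -0.98; edgeR adjusted p = 1.73e-07). Plpp1 and Plpp2, phosphatases related to Plpp3, rose by log2 changes of 0.38 and 0.19, and on the excess diet after Glenn surgery Plpp2 was lower than on the control diet (log2 difference -0.60; edgeR adjusted p = 0.0394), the single pathway gene outside the members called in a diet comparison.

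Among sphingolipid synthesis and ceramide genes the balance of calls turned with the scaling, while the median relative to all genes moved little. Of 33 listed, 32 were in the table and 27 were tested: 4 rose, 16 fell and 7 did not pass the test (23.4% of all genes rose and 24.7% fell), with a median of -0.105 relative to all genes tested. With the endothelial scaling 16 rose and 3 fell, where 92.2% of all calls were rises, with a median of -0.107 relative to all genes tested. Acer2, an alkaline ceramidase that releases sphingosine in the Golgi, fell from 762 ± 167 CPM (431 to 1030) to 190 ± 61.8 CPM (113 to 315), that is by 2.01 ± 0.126 (SE) on the log2 scale (edgeR adjusted p = 2.39e-13). Its sham and Glenn libraries did not overlap. Kdsr, which catalyses a step of sphinganine synthesis, fell from 173 ± 8.61 to 97.5 ± 9.86 CPM (log2 change -0.82; edgeR adjusted p = 7.45e-17) and Degs1, the dihydroceramide desaturase, from 387 ± 34.6 to 259 ± 30.7 CPM, both without overlap. The genes that rose included Smpd3, a neutral sphingomyelinase, from 2.29 ± 1.07 to 8.28 ± 2.92 CPM (log2 change 1.83; edgeR adjusted p = 1.55e-07), Acer3, another ceramidase, by 0.51 on the log2 scale, and Rtn4, a regulator of serine palmitoyltransferase, by 0.33.

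Of the genes that act after the receptors some rose and some fell, as among all genes tested (23.4% rose and 24.7% fell). Of 18 G proteins and effectors, 4 rose, 7 fell and 7 did not pass the test, with a median log2 change of 0.03; with the endothelial scaling 12 rose and 2 fell, with a median of 0.04 relative to all genes tested. Nos3, the endothelial nitric oxide synthase, rose from 81.9 ± 10.1 to 154 ± 35.2 CPM without overlap (log2 change 0.91; edgeR adjusted p = 1.07e-09), and Rock1 and Pik3cb rose by 0.11 and 0.19. The G protein subunits Gnai1, Gna11 and Gnaq fell by 0.68, 0.46 and 0.31 on the log2 scale, and Gnaq relative to all genes was at -0.30 with TMM and with the endothelial scaling. Of 10 regulators of S1pr1 level or surface display, 1 rose, 6 fell and 3 did not pass the test, with a median of -0.46. The shares over all genes were again 23.4% and 24.7%. With the endothelial scaling 2 of the regulators rose and 3 fell. Klf2 fell from 1470 ± 283 to 656 ± 103 CPM without overlap (log2 change -1.16 ± 0.079, SE; edgeR adjusted p = 3.88e-13), while S1pr1 had a log2 change of 0.16 that did not pass the test. Klf4, a related factor, fell by 0.72 on the log2 scale and Dnm2, the dynamin of receptor uptake, by 0.48, and Stat3 rose by 0.13.

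Lysophosphatidic acid is a related lipid signal with its own receptors. Of its 7 genes, 4 rose, 1 fell and 2 did not pass the test, with a median of 0.59 (23.4% of all genes rose and 24.7% fell), and the endothelial scaling gave the same counts. The receptor Lpar4 rose from 4.29 ± 1.03 to 22.6 ± 6.45 CPM without overlap (log2 change 2.33 ± 0.134, SE; edgeR adjusted p = 2.17e-14), the receptor Lpar6 from 83.3 ± 17.2 to 150 ± 22.8 CPM without overlap, and the receptor Lpar3 from 3.95 ± 1.34 to 7.51 ± 2.52 CPM. The gene that fell, Lpar5, a receptor named after its values were seen, was near the detection limit at 0.279 CPM in sham and 0.0678 CPM in Glenn libraries.

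**Figure D4:**
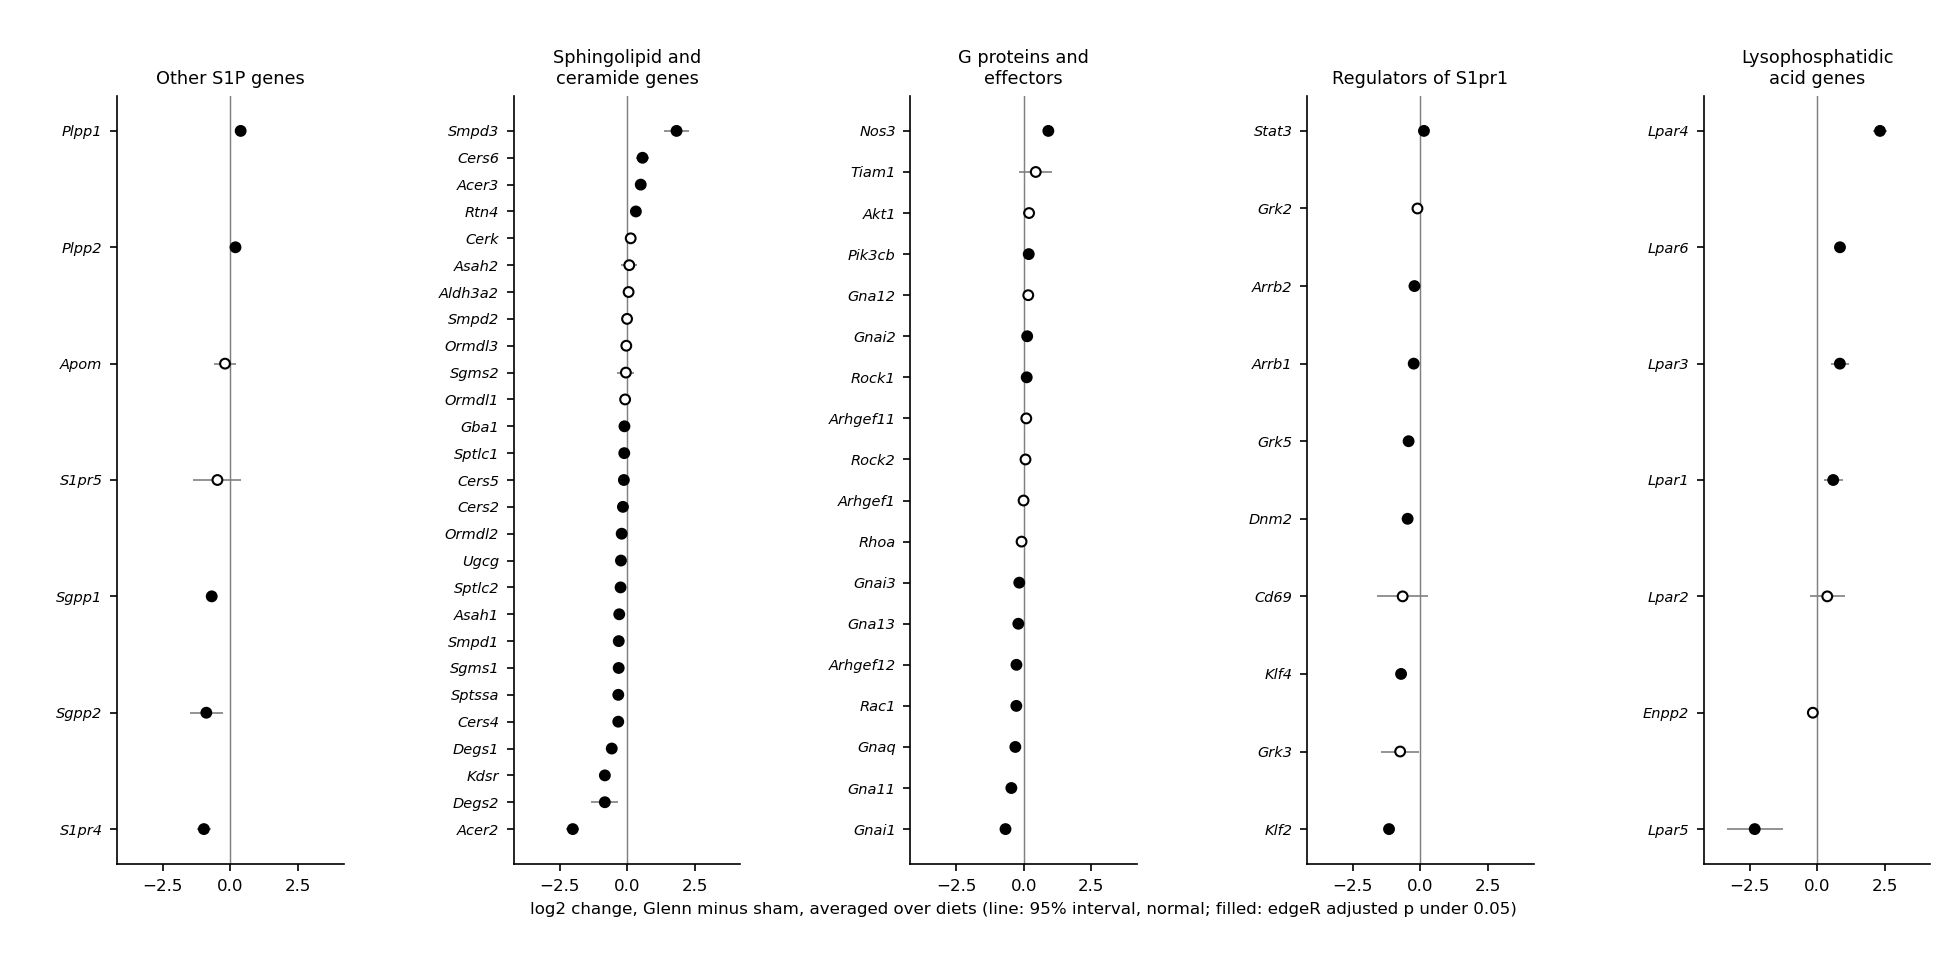
Log2 change between Glenn and sham surgery averaged over diets (x axis) for every tested gene (y axis) of the 5 wider lists, a panel each; points are edgeR estimates, filled where the adjusted p was under 0.05, and lines are 95% intervals under a normal error. Acer2 lies at -2.01, Lpar4 at 2.33, and most other genes lie closer to 0.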

How the data were processed

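Bulk RNA-seq was made from microbead-sorted CD31+ rat lung cells with a PureLink kit and the SMART-Seq v4 low-input kit, per the labels' protocols. The deposited values are estimated counts per gene, 13.6% of them not whole numbers; FastQC, Trim Galore, Picard, STAR and Salmon and the build mRatBN7.2 are named in the submitters' processing notes. The annotation and strand setting are not given in the sources used here. Estimated counts were rounded and tested with edgeR 4.0.16 (R 4.3.3) by the quasi-likelihood test with robust fitting, TMM scaling (factors 0.938 to 1.06), a minimum count of 10 and total of 15, 6 group means and library-number series as a term, and Benjamini-Hochberg adjustment over 16171 genes at 0.05. All 30 libraries entered each comparison and share 1 estimate of the spread. Alternatives included DESeq2 1.42.0, limma 3.58.1 (voom), other scalings and leaving out each library. Scripts were tested on simulated data. Within each group, pairs of libraries differed beyond sampling noise (chi-square per degree of freedom 20.1 to 119 over 60 pairs).

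The members and lists were chosen with earlier results of these data known. The genes named are all 8 members; from each wider list, up to 3 raised and 3 lowered genes with the smallest adjusted p in the averaged comparison and a mean of at least 1 CPM; and the 2 genes most like each member. Marker scores are means of log2(CPM + 1). In the averaged comparison 23.4% of all genes rose and 24.7% fell. Of the marker lists, 7 of 7 lymphatic, 5 of 6 arterial, 5 of 6 fibroblast and 8 of 8 mural markers rose, while 6 of 9 endothelial, 4 of 5 aerocyte, 4 of 5 general capillary, 3 of 6 venous, 2 of 6 epithelial, 2 of 4 leukocyte, 4 of 5 platelet and erythroid and 0 of 4 mesothelial markers fell, by edgeR. Of the venous list 2 rose, as did 1 of the epithelial, 1 of the aerocyte, 2 of the endothelial and 1 of the platelet and erythroid list. Of the arterial list 1 fell. Promoter sequences are from RefSeq on GRCr8, used for sequence and neighbouring genes; no file coordinates were used.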

Additional observations from a re-analysis of the deposited data

Results flagged for a closer look

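In each of the 6 groups of 5 libraries, the highest and lowest library of each of the 8 genes was checked for a gap to its nearest neighbour of over 0.71 of the group's range. Of 48 sets, 9 had such a gap, where chance gives about 1 in 20, or 2.4. For Spns2, Glenn excess 1 stood at 428 CPM against 230 to 264 CPM in the other libraries of its group (gap 0.828 of the range), and Glenn deficient 1 at 276 against 208 to 227 CPM (0.71). For S1pr2, Glenn deficient 4 stood at 30.2 CPM against 23.3 to 24.9 CPM (0.772), and sham control 4 at 25.5 against 15.5 to 18.2 CPM (0.731). For Sphk1, near the detection limit, Glenn excess 4 stood at 1.17 CPM against 0.353 to 0.467 CPM (0.861), sham deficient 2 at 1.66 against 0 to 0.457 CPM (0.725), and sham excess 3 at 1.09 against 0.292 to 0.516 CPM (0.72). For Sphk2, sham control 1 was the lowest at 34.0 CPM against 37.4 to 38.3 CPM (0.788). For Plpp3, sham excess 3 stood at 316 CPM against 278 to 289 CPM (0.712). No member had a surgery effect that differed between diets at an adjusted p under 0.05 by edgeR.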

How the results depend on the processing

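The count of members called between Glenn and sham libraries, 3 with the diets averaged, was 8 with scaling to endothelial markers, 0 with the mural score and 1 with the general capillary score as a covariate, and 3 to 4 when each library was left out in turn. On the control diet (3 members) these values were 7, 1 and 0, and 2 to 3 with a library left out. On the deficient diet (3 members) the endothelial scaling gave 7, the mural score 0, and leaving out a library 2 to 3. On the excess diet (2 members) the endothelial scaling gave 4, the mural score 0, and leaving out a library 1 to 3. For excess against control diet after Glenn surgery (1 member, Spns2), the count was 0 with no series term, with RT1-CE16 in place of the series, with the endothelial scaling, with only the groups compared, in RT1-CE16-low or -high libraries, with the general capillary score and without the first Glenn library of every diet. It was 2 in the lower-numbered series alone and by DESeq2, and 0 to 2 with a library left out. The cause of these moves was not tested. The RT1-CE16, marker-score and first-library settings were chosen after seeing the data.

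Directions that reversed were S1pr2 with the general capillary score (-0.072 with the diets averaged and -0.069 on the control diet), Sphk1 with the mural score (-1.21) and the general capillary score (-0.85), and Sphk2 with the endothelial scaling (0.34, but -0.011 relative to the median of all genes, which that scaling moved up by 0.361, against -0.012 with TMM), the mural score (0.013) and the general capillary score (0.014). S1pr3 kept its rise when each library was left out (1.76 to 1.95), as did the fall of Spns2 (-0.75 to -0.66). The S1pr2 call was lost in 7 leave-one-out fits on the control diet.

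Replicate numbers were not taken as pairs, since not every same-numbered pair correlated above 0.1: same-numbered deviations correlated at -0.275 to 0.319. As a hint from the data, 17 of 30 libraries correlated best with their own number. The pairs of number 1 correlated at 0.027 to 0.312. Sex was inferred from the Y chromosome gene Ddx3y, with libraries above 10 CPM taken as male, which gave 13 male and 17 female libraries. Glenn excess held 3 such male libraries and each other group 2. By this inference number 1 libraries were all male and number 2 libraries all female, and both were all RT1-CE16-low. With a replicate block, 4 members were called with the diets averaged (S1pr1 added, 0.17, edgeR adjusted p = 0.0387), 3 on the control diet, 2 on the deficient diet (S1pr2 lost at 0.40), 2 on the excess diet and 0 for excess against control diet after Glenn surgery (Spns2 0.53, edgeR adjusted p = 0.0599).

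Over all settings the genes called numbered 7792 with the diets averaged (1928 with the mural score to 11224 with the endothelial scaling), 4023 on the control diet (1165 to 9526), 4423 on the deficient diet (1279 to 7720) and 3549 on the excess diet (933 to 5005). They numbered 39 (0 to 210) for excess and 0 (0 to 26) for deficient against control diet after sham surgery, 1 (1 to 63) for deficient and 237 (0 to 557) for excess against control diet after Glenn surgery, and 1 (0 to 35) for the interaction. Fits of only the groups compared do not apply to the averaged comparison and the interaction, and RT1-CE16-high libraries could not give a value for comparisons with sham excess, of which none was high. Depth limits Sphk1, with at most 92 counts per library.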
